A study of Mus musculus with 24 samples.

Results

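Hippocampus (HC) of 16GsoT/T mice was compared with HC of wild type (WT) mice at postnatal day 35 (P35). The comparison takes 6 of the 24 libraries of the series, chosen by region and age alone, with 3 mice per genotype. The 16GsoT/T libraries are B10, B11 and B12, and the WT libraries are N10, W481 and W483. All 25793 gene symbols of the count table were considered, and 13343 of them had enough reads to be tested. 16GsoT/T mice are homozygous for 16Gso, a reciprocal translocation between chromosomes 5 and 8. Its breakpoint on chromosome 5 lies between *Galnt17*, which encodes a transferase that starts O-linked glycosylation, and *Auts2*, a regulator of transcription and of neuronal development. On chromosome 8 it lies close to *Sox1*, a transcription factor of neural progenitors. No transgene or drug was used in either group. The library names give the cross B6C3 for WT, while a C57BL/6 background is entered for every sample. According to the methods of the study, homozygotes came from homozygous parents, so the translocation cannot be told apart from other differences between the breeding lines. The names of B10, B11, B12 and N10 mark male mice, and the study states that males were used throughout.

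The WT libraries came from separate library batches. B10, B11, B12 and N10 have the consecutive library numbers 572 to 575 and a single index, whereas W481 and W483 have the numbers 668 and 669 and a dual index. Only N10 therefore shares a batch with the 16GsoT/T libraries, and each difference was also computed against N10 alone and against W481 and W483 alone. Because N10 is a single mouse, an effect of library batch cannot be told apart from a difference between mice or dissections. The p-values measure the spread between these mice, which within WT includes any difference between the library batches. For a single gene, the smallest p that an exact permutation of 3 against 3 mice allows is 0.1.

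As background, the hippocampal circuit runs from granule cells of the dentate gyrus (DG) to pyramidal cells of CA3 and CA1, and its excitatory synapses use glutamate. Immediate early genes (IEGs) such as *Fos*, *Arc* and *Npas4* are induced within minutes when neurons fire, and many of them are switched on through CREB, a transcription factor that binds the cAMP response element. The choroid plexus is a secretory epithelium of the ventricles that lies against the hippocampus, produces cerebrospinal fluid and releases transthyretin, the product of *Ttr*.

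Between 2563968 and 4127478 reads per 16GsoT/T library and between 3670821 and 3970847 per WT library were counted on genes, which was 39.3% to 41.1% of all reads of a library. Expression is given in CPM, edgeR's counts relative to the TMM-scaled library size, and 3 counts corresponded to 0.722 to 1.17 CPM. Markers of the hippocampal subfields were present in every library. The summed level of 12 DG granule cell markers was 668.6 to 1085 CPM, that of 10 CA1 markers 635 to 717.3 CPM, and that of 13 CA2 and CA3 markers 600.1 to 681.1 CPM. Markers of other brain regions stood out in single libraries. The summed level of 11 thalamus markers was 335.2 CPM in N10 and 100.7 to 125.1 CPM in the other libraries, and that of 7 cerebellum markers was 155.1 CPM in B10, 23.89 CPM in N10 and 8.73 to 14.4 CPM in the others. W481 and W483 were the closest pair by the leading log2 fold change, a distance over the 500 genes that differ most between 2 libraries, with 1.2 against 1.31 to 1.66 for all other pairs. The samples are bulk tissue, in which fewer cells of a type and less RNA per cell cannot be told apart.

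The quasi-likelihood test of edgeR called 18 genes differentially expressed (DEGs) at the threshold of 0.05 on the p adjusted over all genes, which is 0.135% of those tested. Of these, 15 were higher in 16GsoT/T (0.112%) and 3 were lower (0.0225%), and all 18 changed by at least 1.5-fold. In each DEG the values of the groups did not overlap. Over all tested genes, 6.12% were higher and 6.95% lower without overlap, and an unadjusted p below 0.05 was reached by 496 higher genes (3.72%) and 683 lower genes (5.12%). The estimated coefficient of variation between mice was 0.125, and the median log2 fold change over all tested genes was -0.01. The number of DEGs was 130 (0.974%) without N10, 39 without B11, 10 without W481 and 8 without B12. The higher genes fall into a choroid plexus group, a small set of predicted or little studied genes, and 4 others.

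**Figure D1:**
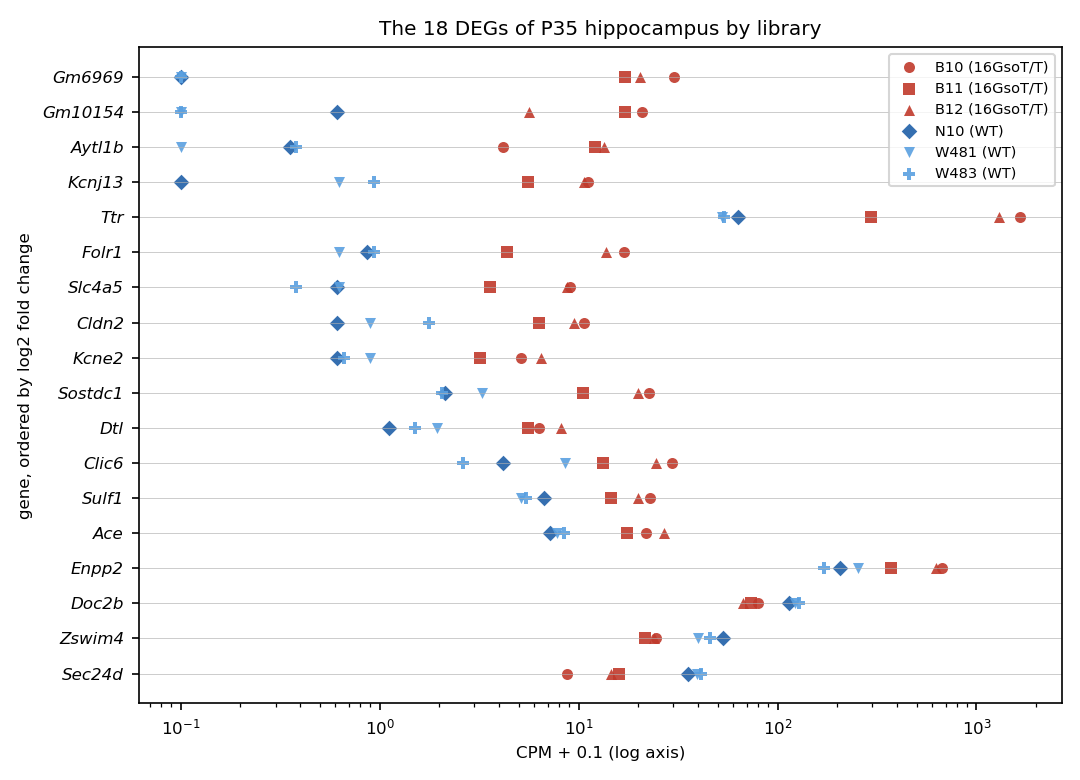
The 18 DEGs, one row per gene in the order of their log2 fold change, with the CPM of each library on a log axis after adding 0.1. Red symbols are the 16GsoT/T libraries and blue symbols the WT libraries, and in every row the red and the blue symbols stand apart, with the 3 lower genes at the bottom.

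The choroid plexus group was the largest. Of 13 choroid plexus markers, 12 were tested, all 12 were higher in 16GsoT/T and 8 passed the test, against 0.112% of all genes. In 11 of the 12 the groups did not overlap, and the median log2 fold change was 2.91, against -0.01 over all genes. The median was much the same against either set of WT libraries, 3.17 against N10 alone and 2.80 against W481 and W483. *Kcnj13*, *Folr1*, *Slc4a5*, *Kcne2*, *Cldn2* and *Otx2* had fewer than 10 reads in every WT library. They passed the filter on low counts through the 16GsoT/T libraries, which favoured a higher level there. The count of higher markers and the median are therefore not independent of the filter, and the list was chosen with earlier results known. The summed level of the 13 markers was 1834, 387.5 and 1466 CPM in B10, B11 and B12, and 103.4, 98.92 and 90.92 CPM in N10, W481 and W483. B11 was the lowest of the 16GsoT/T libraries and was still above every WT library. None of the 8 calls held against N10 alone, nor in one fit with the P35 CB libraries. With library batch as a covariate *Kcnj13*, *Ttr*, *Cldn2* and *Sostdc1* were called, and the calls of *Folr1*, *Slc4a5*, *Kcne2* and *Clic6* ended. Leaving out 1 library ended the calls of *Kcne2* (B10, B12, W481 or W483), *Clic6* (B10, B12 or W483), *Slc4a5* and *Cldn2* (B12 or W481) and *Folr1* (W481).

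*Ttr*, the thyroid hormone carrier of the cerebrospinal fluid, was measured at 1655, 294.2 and 1294 CPM in B10, B11 and B12, and at 63.54, 52.37 and 53.43 CPM in N10, W481 and W483. Its log2 fold change was 4.26 with an SE of 0.447 (edgeR adjusted p = 0.001). The WT mice were within a narrow range, while the 16GsoT/T mice differed more from each other than any of the WT mice did. *Kcnj13*, an inwardly rectifying potassium channel of this epithelium, stood at 11.1, 5.44 and 10.5 CPM in the 16GsoT/T libraries and at 0, 0.529 and 0.839 CPM in the WT libraries. *Folr1*, the receptor that carries folate into the cerebrospinal fluid, stood at 16.9, 4.28 and 13.6 CPM against 0.762, 0.529 and 0.839 CPM. Both rest on few WT reads, 5 counts for *Kcnj13* and 8 for *Folr1* over the 3 libraries. The ratio of summed counts was 21.4 for *Kcnj13* (95% exact interval 8.87 to 67.4) and 17.8 for *Folr1* (8.75 to 42.0), and the intervals cover counting error only.

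The transporters and channels that set the composition of the fluid were higher as well. *Slc4a5*, a sodium bicarbonate cotransporter, was at 8.91, 3.498 and 8.60 CPM against 0.508, 0.529 and 0.280 CPM (log2 fold change 3.93, edgeR adjusted p = 0.00528). *Kcne2*, a potassium channel subunit, was at 5.06, 3.11 and 6.38 CPM against 0.508, 0.793 and 0.559 CPM (2.93, edgeR adjusted p = 0.0322). *Cldn2*, the tight junction protein of leaky epithelia, was at 10.6, 6.22 and 9.43 CPM against 0.508, 0.793 and 1.68 CPM (3.14, edgeR adjusted p = 0.00528). In these 3 genes, too, B11 was the lowest 16GsoT/T library and lay above the highest WT library. *Sostdc1*, a secreted antagonist of BMP and Wnt signalling, was at 22.4, 10.5 and 19.7 CPM against 2.03, 3.17 and 1.96 CPM (2.89, edgeR adjusted p = 0.00339). *Clic6*, an intracellular chloride channel protein that is enriched in the plexus, was at 29.4, 13.2 and 24.4 CPM against 4.07, 8.46 and 2.52 CPM (2.17, edgeR adjusted p = 0.0277).

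The other members of the list did not pass the test. *Otx2*, the transcription factor that maintains the plexus, had a log2 fold change of 1.96 (edgeR adjusted p = 0.146) and *F5*, a coagulation factor, one of 1.73 (0.220). *Kl*, which encodes the FGF23 coreceptor klotho, was at 41.9, 27.99 and 47.2 CPM against 22.1, 19.3 and 22.4 CPM, a log2 fold change of 0.89 (edgeR adjusted p = 0.124). *Prlr*, the prolactin receptor, overlapped between the groups and had a value of 0.65. *Aqp1*, the water channel of the apical membrane, had too few reads to be tested, with 11.6, 1.55 and 7.21 CPM against 0.254, 0.793 and 0.280 CPM.

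Across the series the same 13 markers varied widely within groups of one genotype. With CPM scaled over all 24 libraries, their summed level ran over 116, 445 and 937 CPM in the WT mice and 101, 1100 and 1850 CPM in the 16GsoT/T mice of P14 HC. In P35 cerebellum (CB) it ran over 25.1, 1280 and 2180 CPM in WT and 145, 294 and 399 CPM in 16GsoT/T. In P14 CB it ran from 30.1 to 706 CPM in WT and from 29.6 to 760 CPM in 16GsoT/T. The 3 WT libraries of P35 HC, at 91.5 to 106 CPM, were thus the narrowest of the 8 groups, and in the other region and age groups the genotypes overlapped. How far the amount of plexus taken with the tissue contributed to the difference was not tested.

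**Figure D2:**
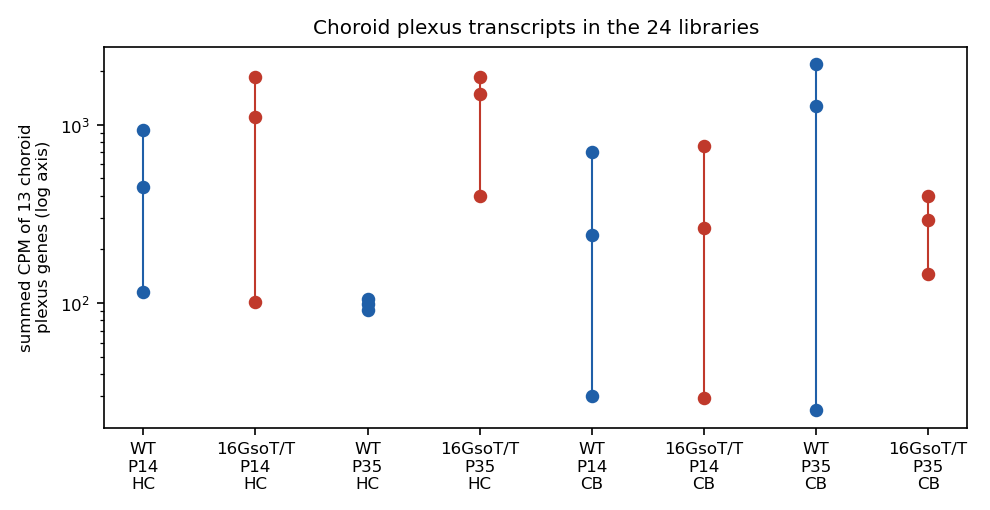
Summed CPM of 13 choroid plexus markers on a log axis in the 8 groups of the series, one point per library, with a line from the lowest to the highest library of a group. WT is blue and 16GsoT/T red, and P35 HC is the only pair of groups in which the genotypes stand apart, with 91.5 to 106 CPM in WT and 397 to 1840 CPM in 16GsoT/T.

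Of the other higher DEGs, 3 were close to absent from WT. *Gm6969*, annotated as a pseudogene at chr12:25322866-25323897 on the minus strand (NCBIM37), was counted at 30.1, 17.1 and 20.3 CPM in B10, B11 and B12 and at 0 in each WT library. Against a floor of 3 counts summed over the WT group *Gm6969* was 88.2-fold higher (edgeR adjusted p = 9.32e-05). The 95% exact lower limit of its ratio of counts was 71.15, which covers counting error only. Of the 18 DEGs it alone was also called against N10 alone. *Gm10154*, a predicted protein coding gene at chr4:83151051-83151458 on the minus strand, had 20.7, 17.1 and 5.55 CPM against 0.508, 0 and 0 CPM, with 150 counts against 2, a ratio of 82.0 with a 95% exact interval of 22.3 to 683 (edgeR adjusted p = 0.00401).

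*Aytl1b*, the former name of the lysophospholipid acyltransferase *Lpcat2b* at chr5:107860568-107864058, had 4.09, 12.1 and 13.3 CPM against 0.254, 0 and 0.280 CPM, a ratio of counts of 52.5 with an interval of 14.1 to 439 (edgeR adjusted p = 0.00446). With library batch as a covariate *Gm6969* was called and the calls of *Gm10154* and *Aytl1b* ended. Both genotypes had reads of these genes elsewhere in the series. *Gm6969* was at 7.46 to 9.89 CPM in WT and 18.5 to 19.2 CPM in 16GsoT/T of P14 HC, and one WT library of P14 HC had 10.2 CPM of *Gm10154*. Reads of a pseudogene or of a near-identical copy can be split between loci by the counting, so the level of *Gm6969* in particular is uncertain.

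The remaining higher DEGs were *Dtl*, *Sulf1*, *Ace* and *Enpp2*. *Dtl*, the substrate receptor of a ubiquitin ligase that acts in S phase, was at 6.26, 5.44 and 8.05 CPM in the 16GsoT/T libraries and at 1.02, 1.85 and 1.40 CPM in the WT libraries (log2 fold change 2.20, edgeR adjusted p = 0.0459). The following 3 genes were named after their values were seen. *Sulf1*, a sulfatase that trims heparan sulfate, was at 22.9, 14.4 and 19.7 CPM against 6.61, 5.03 and 5.32 CPM (1.76). *Ace*, angiotensin converting enzyme, was at 21.7, 17.5 and 26.9 CPM against 7.12, 7.67 and 8.39 CPM (1.52). *Enpp2*, the secreted enzyme autotaxin, was at 668, 372 and 627 CPM against 205, 254 and 171 CPM (1.41). *Ace* and *Enpp2* are also expressed in choroid plexus. For *Sulf1*, *Ace* and *Enpp2* B11 was the lowest 16GsoT/T library, as it was for every called marker of the plexus. B11 was also the lowest for *Dtl* and *Gm6969*, but not for *Gm10154* and *Aytl1b*. Whether plexus tissue contributed to these differences was not tested. The calls ended for *Dtl* without B10, B12, W481 or W483, for *Sulf1* without B10, B12 or W481, for *Ace* without B12 or W481 and for *Enpp2* without B12. Each of these 4 calls also ended with library batch as a covariate, and that of *Enpp2* in one fit with the P35 CB libraries.

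Only 3 genes were called lower. *Sec24d*, at chr3:122970414-123068553, encodes a cargo adaptor of the COPII coat, which carries proteins from the endoplasmic reticulum to the Golgi. It was at 8.67, 15.9 and 14.4 CPM in B10, B11 and B12 and at 35.6, 39.4 and 41.1 CPM in N10, W481 and W483. The highest 16GsoT/T value was under the lowest WT value by more than the range of either group. Its log2 fold change was -1.60 with an SE of 0.205 (edgeR adjusted p = 0.00432), and it was -1.48 against N10 alone and -1.66 against W481 and W483.

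*Zswim4*, a zinc finger protein gene at chr8:86734577-86760954, was at 24.3, 21.4 and 23.9 CPM against 53.1, 39.7 and 45.9 CPM (log2 fold change -0.99, edgeR adjusted p = 0.0197). *Doc2b*, at chr11:75582468-75609551, encodes a calcium sensor of vesicle release and was at 79.9, 73.1 and 67.1 CPM against 114, 122 and 128 CPM (-0.72, edgeR adjusted p = 0.0203). The 16GsoT/T values of both genes lay close together. The call of *Zswim4* ended without B10, B12 or W483 and that of *Doc2b* without B12, W481 or W483, while *Sec24d* was called with any one library left out. With library batch as a covariate *Sec24d* and *Zswim4* were called and *Doc2b* was not.

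Genes next to the threshold were *Mef2c*, an activity-dependent transcription factor of neurons, and *Pamr1*, a secreted protease-like protein. *Mef2c* was at 220.3, 203.7 and 280.5 CPM against 158.6, 139.7 and 119.7 CPM (log2 fold change 0.75, edgeR adjusted p = 0.0548). *Pamr1* was at 23.8, 22.9 and 33.6 CPM against 14.5, 10.6 and 8.39 CPM (1.26, edgeR adjusted p = 0.0548). The groups of both genes stood apart. *Myo7a*, an unconventional myosin, was at 2.89, 5.44 and 3.33 CPM against 11.4, 13.8 and 9.79 CPM (-1.63, edgeR adjusted p = 0.0622). *Myo7a* was called lower in each of the other 3 region and age groups, with log2 fold changes of -2.23 in P14 HC, -2.67 in P35 CB and -3.89 in P14 CB. DESeq2, which called 0.33% of all genes, called all 3 genes, with adjusted p of 0.000641 for *Mef2c*, 0.00359 for *Pamr1* and 0.0236 for *Myo7a*. These 3 genes were named after their values were seen.

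The genes beside the breakpoints changed little or did not pass the test. *Galnt17*, listed as *Wbscr17* at chr5:131347952-131783948, was at 109.6, 139.5 and 114.6 CPM in B10, B11 and B12 and at 161.9, 181.4 and 212.3 CPM in N10, W481 and W483. The groups did not overlap, and the log2 fold change was -0.62 with an SE of 0.131 (edgeR adjusted p = 0.120). DESeq2 gave an adjusted p of 0.0161 for the same difference, and edgeR called it without B11 (adjusted p = 0.0403) or without N10 (0.0197). It was smaller against N10 alone, -0.42, than against W481 and W483, -0.71. In their own fits *Galnt17* was called lower in P14 HC (-0.46), P35 CB (-0.31) and P14 CB (-1.05), and its interactions of P35 HC with P14 HC and with P35 CB were not past the threshold.

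*Auts2*, at chr5:131913205-133019214, was at 64.5, 71.1 and 82.1 CPM against 85.9, 60.0 and 78.0 CPM. The groups overlapped fully, with a log2 fold change of -0.04 and an SE of 0.149 (edgeR adjusted p = 0.971), and the sign turned when B10, N10 or W483 was left out. *Caln1*, a calcium binding protein gene at chr5:130845346-131316515, overlapped as well, with 32.0, 53.2 and 46.1 CPM against 37.9, 64.5 and 50.9 CPM (-0.24, edgeR adjusted p = 0.822), and the value was 0.20 against N10 alone. *Sox1* was at 30.1, 17.9 and 23.0 CPM against 13.2, 17.5 and 13.4 CPM. The groups of *Sox1* stood apart by a small margin, with a log2 fold change of 0.71 and an SE of 0.216 (edgeR adjusted p = 0.326).

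The interval between *Galnt17* and *Auts2*, chr5:131783949-131913204, is 129.3 kb long. Within 5 Mb on either side of it 74 tested genes had a position, and the quasi-likelihood test of edgeR called none of them. Of the 74, 10 had an unadjusted p below 0.05, against 8.84% of all genes. In 16GsoT/T 43 of the 74 had a positive and 31 a negative log2 fold change, and their median was 0.04, against -0.01 over all genes. Beside *Galnt17*, the lowest unadjusted p there were those of *Stx1a*, a syntaxin of synaptic vesicle fusion, with a log2 fold change of 0.79 (edgeR adjusted p = 0.107), and *Glt1d1*, a glycosyltransferase-like gene, with -1.11 (edgeR adjusted p = 0.157). Both had groups that stood apart and were named after their values were seen. DESeq2, which called 0.33% of all genes, called *Stx1a* (adjusted p = 0.00359). The likelihood ratio test of edgeR, which called 0.757%, called *Stx1a* (adjusted p = 0.002245) and *Galnt17* (adjusted p = 0.00616). The log2 fold change of *Stx1a* was 0.41 against N10 alone and 1.02 against W481 and W483. Positions were taken from GENCODE vM1 on NCBIM37, where 12537 of the 13343 tested symbols had a single position.

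**Figure D3:**
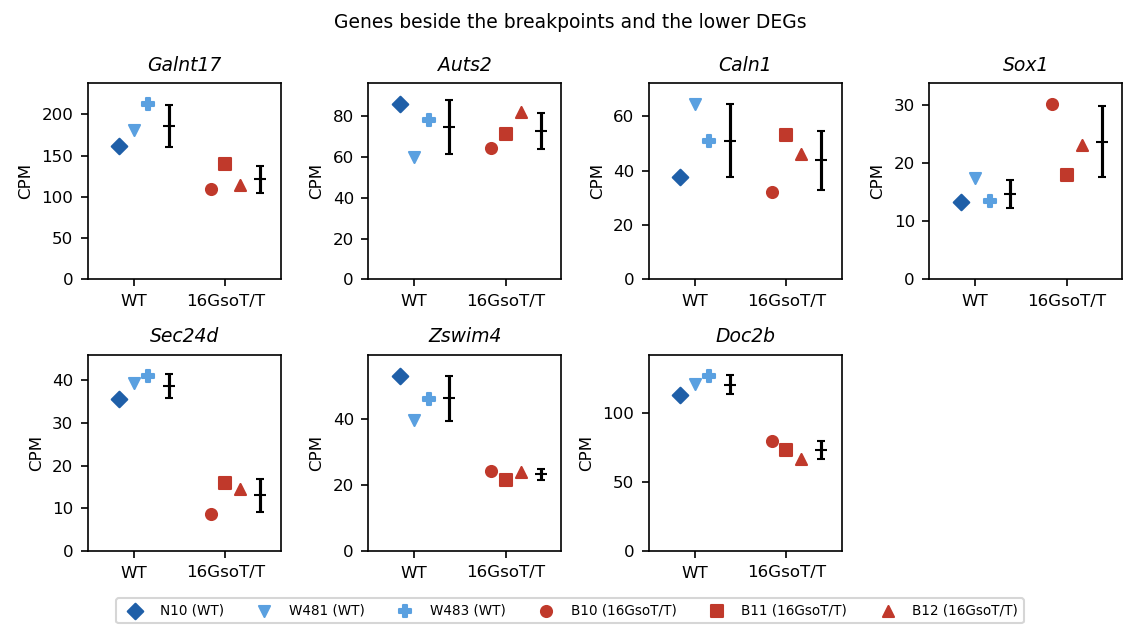
CPM by library, on axes that start at 0, of the 4 genes beside the breakpoints (upper row) and of the 3 lower DEGs (lower row), with the mean and SD of 3 libraries in black. *Galnt17*, *Sox1* and the 3 genes of the lower row have groups that stand apart, whereas *Auts2* and *Caln1* overlap.

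Most IEGs had higher means in 16GsoT/T, but none passed the quasi-likelihood test of edgeR and the size of the difference depended on which WT mice were used. Because many IEGs are tied to neuronal activity through their promoters, the 250 bases before the start of *Fos*, *Npas4* and *Nr4a1* are shown 5′ to 3′, from RefSeq on GRCm38.p6, at chr12:85473640-85473889 on the plus strand, chr19:4989972-4990221 on the minus strand and chr15:101266596-101266845 on the plus strand. Capitals mark TGACG, the core of the cAMP response element, on either strand, where it reads CGTCA on the other.
Fos promoter: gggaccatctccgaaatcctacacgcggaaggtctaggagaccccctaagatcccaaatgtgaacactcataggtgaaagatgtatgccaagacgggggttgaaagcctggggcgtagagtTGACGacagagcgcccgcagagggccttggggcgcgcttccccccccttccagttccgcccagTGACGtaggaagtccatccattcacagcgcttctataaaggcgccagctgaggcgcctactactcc
Npas4 promoter: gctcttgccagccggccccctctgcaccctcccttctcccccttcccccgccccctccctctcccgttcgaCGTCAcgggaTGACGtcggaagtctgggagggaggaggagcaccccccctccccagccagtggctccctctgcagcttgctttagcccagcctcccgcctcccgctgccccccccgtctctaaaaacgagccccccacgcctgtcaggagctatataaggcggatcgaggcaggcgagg
Nr4a1 promoter: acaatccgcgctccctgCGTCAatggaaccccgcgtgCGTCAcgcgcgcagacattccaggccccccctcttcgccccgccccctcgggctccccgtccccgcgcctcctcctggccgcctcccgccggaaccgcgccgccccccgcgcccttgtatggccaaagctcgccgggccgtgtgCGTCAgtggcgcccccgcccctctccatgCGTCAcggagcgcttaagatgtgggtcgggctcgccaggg
Of the 21 tested IEGs, 17 had a promoter in the RefSeq table, and 13 of these (76.5%) held TGACG in at least one promoter, against 19.8% of all 27029 genes of the table. Per promoter the share was 17.8% of 32851. A match describes the letters of the window and not a bound site.

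The first of these genes, *Fos*, was at 55.1, 26.4 and 93.8 CPM in B10, B11 and B12 and at 47.3, 3.17 and 15.7 CPM in N10, W481 and W483. N10 lay within the 16GsoT/T range, and W481 and W483 lay below it. The log2 fold change was 1.41 with an SE of 0.549 (edgeR adjusted p = 0.472). It was 0.33 against N10 alone and 2.67 against W481 and W483, where it was called (edgeR adjusted p = 0.0164). *Npas4*, which is induced by calcium entry and regulates inhibitory synapses, was at 24.1, 33.4 and 56.0 CPM against 20.1, 7.41 and 16.8 CPM (1.35, edgeR adjusted p = 0.211). Its groups did not overlap, and it was 0.92 against N10 alone.

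*Nr4a1*, an orphan nuclear receptor with 4 matches in its promoter, was at 121.6, 83.2 and 204.8 CPM against 115.4, 40.2 and 62.7 CPM (log2 fold change 0.91, edgeR adjusted p = 0.417). *Egr1*, a zinc finger transcription factor, was at 263.4, 161.3 and 370.9 CPM against 198.0, 81.7 and 123.4 CPM (0.99, edgeR adjusted p = 0.292). *Arc*, which controls AMPA receptor endocytosis, was at 295.2, 196.7 and 556.6 CPM against 291.0, 99.5 and 194.1 CPM (0.85, edgeR adjusted p = 0.492). In these 3 genes N10 lay above B11 while W481 was the lowest of all 6 libraries.

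Over the list, the log2 fold change was positive for 19 of the 21 tested IEGs and negative for 2, and its median was 0.89 against -0.01 over all genes. In 4 of them 16GsoT/T was higher without overlap, against 6.12% of all genes, and 13 were higher with an unadjusted p below 0.05, against 3.72%. The likelihood ratio test of edgeR, which called 0.757% of all genes, called *Npas4* alone among the IEGs, and DESeq2 called none. The median was 0.27 against N10 alone and 1.26 against W481 and W483. W481 had the lowest value in 15 of the 21 genes and W483 in 5, and B12 had the highest in 15. N10 lay above both other WT libraries in 19 genes and within or above the range of the 16GsoT/T libraries in 16. Without N10, 7 IEGs were called by edgeR, against 0.974% of all genes. Library batch and genotype cannot be told apart in the comparison with W481 and W483 alone. Genes that respond to activity later, such as *Bdnf*, *Nptx2* and *Vgf*, had a median of 0.24 over 22 tested genes, of which 17 were higher. Their median was 0.06 against N10 alone and 0.34 against W481 and W483. None of the 22 was called by edgeR or DESeq2, 5 were higher with an unadjusted p below 0.05, and 1 was called by edgeR without N10.

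**Figure D4:**
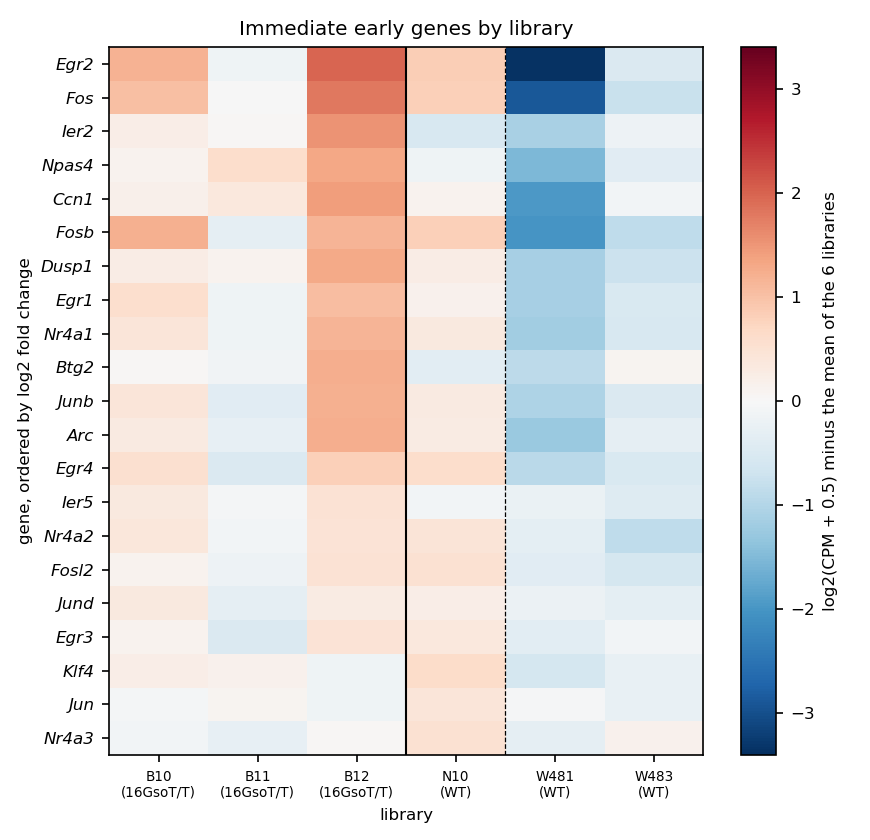
Heat map of the 21 tested IEGs, one row per gene in the order of its log2 fold change and one column per library, coloured by log2(CPM + 0.5) minus the mean of the 6 libraries. B12 is the reddest column and W481 the bluest, and N10, left of the dashed line that separates the library batches, lies above both W481 and W483 in 19 of the rows.

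Genes of the glutamatergic synapse were lower for the most part, and none of the receptor, auxiliary subunit or scaffold genes was called by the quasi-likelihood test of edgeR. Of 17 ionotropic glutamate receptor genes, 14 were lower and 3 higher, and their median log2 fold change was -0.20 against -0.01 over all genes. Of these 17, 5 had an unadjusted p below 0.05, against 8.84% of all genes, and DESeq2 called none. The likelihood ratio test of edgeR called *Gria4* (adjusted p = 0.0139), against 0.757% of all genes. Without N10 the quasi-likelihood test of edgeR called *Grin2a*, against 0.974% of all genes. *Gria1*, a main subunit of AMPA receptors, was at 763.2, 928.6 and 827.1 CPM in B10, B11 and B12 and at 953.5, 1043 and 1133 CPM in N10, W481 and W483 (-0.31, edgeR adjusted p = 0.407). *Grin2a*, an NMDA receptor subunit that rises with maturation, was at 21.7, 48.2 and 37.7 CPM against 44.7, 75.9 and 70.2 CPM (-0.86, edgeR adjusted p = 0.292). B10 was the lowest library for both. The value of *Grin2a* was -0.34 against N10 alone and -1.06 against W481 and W483. *Grin2b*, its counterpart of early development, had a value of -0.78, with -0.11 against N10 alone and -1.04 against W481 and W483. The groups of *Grin2a* and of *Grin2b* overlapped. *Gria4*, an AMPA receptor subunit of interneurons, went the other way with 92.2, 82.0 and 85.2 CPM against 60.0, 64.5 and 51.2 CPM (0.56, edgeR adjusted p = 0.146), and its groups did not overlap.

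Proteins that escort or anchor these receptors showed the same sign. Of 11 AMPA and kainate receptor auxiliary subunits, 9 were lower and 2 higher, with a median of -0.11. The likelihood ratio test of edgeR called *Cacng5* alone of these (adjusted p = 0.0118), against 0.757% of all genes. *Cacng5*, a TARP subunit, was at 11.1, 18.7 and 13.3 CPM against 23.9, 29.1 and 25.2 CPM (-0.89, edgeR adjusted p = 0.177), and *Cnih2*, a cornichon that slows AMPA receptor gating, at 424.2, 343.2 and 352.9 CPM against 493.8, 468.7 and 536.3 CPM (-0.42, edgeR adjusted p = 0.267). Both had groups that stood apart. Of 7 metabotropic receptors 6 were lower. Of 29 genes of the postsynaptic density scaffold, 22 were lower, with a median of -0.09. *Shank3*, a master scaffold of the density, was at 251.1, 251.9 and 265.2 CPM against 343.6, 318.2 and 349.7 CPM (-0.40, edgeR adjusted p = 0.220). All 3 16GsoT/T mice were below the lowest WT mouse for *Shank3*.

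Ion channels of excitability had 32 lower and 7 higher genes of 39 tested and a median of -0.13. *Kcnj6*, a G protein gated potassium channel, was at 22.9, 26.4 and 20.3 CPM against 29.99, 52.9 and 56.0 CPM (log2 fold change -1.003, edgeR adjusted p = 0.135, DESeq2 adjusted p = 0.0163), and its value was -0.38 against N10 alone. Of 29 genes of long-term potentiation signalling, 18 were lower, with a median of -0.07, and the median against N10 alone was 0.02. GABA receptors and synthesis genes were lower in 15 of 19, whereas synaptic vesicle genes were split evenly, 13 to 13. The medians of the receptor, scaffold and channel lists were negative against N10 alone as well as against W481 and W483. Of the 17 ionotropic receptor genes 15, and of the 29 scaffold genes 23, belonged to the longest of 3 equal groups of tested genes by transcript length. The median log2 fold change was -0.07 in this group and 0.04 in the shortest group. In B10 the longest group deviated by -0.14 and the shortest by 0.15 from the mean of the 6 libraries. Without B10 the medians were -0.11 for ionotropic receptors, -0.05 for the scaffold and -0.05 for ion channels. The part of transcript length in these medians was not tested.

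The values of DG markers depended on which WT libraries were used. Of 12 granule cell markers 11 were lower in 16GsoT/T, and the median log2 fold change was -0.40. In 6 of them the unadjusted p was below 0.05, against 5.12% of all genes that were lower at this limit. None was called by the quasi-likelihood test of edgeR or by DESeq2. The likelihood ratio test of edgeR called 1, *Dsp* (adjusted p = 0.0499), against 0.757% of all genes. Without N10 the quasi-likelihood test called 3, among them *Dsp* and *Prox1*, against 0.974% of all genes. The median was -0.60 against W481 and W483 and 0.01 against N10 alone. *Prox1*, the fate determinant of granule cells, was at 24.8, 50.9 and 45.5 CPM in B10, B11 and B12 and at 44.5, 70.9 and 87.0 CPM in N10, W481 and W483 (-0.76, edgeR adjusted p = 0.386). N10 lay inside the 16GsoT/T range. *Dsp*, a desmosome protein enriched in granule cells, was at 24.8, 49.4 and 28.3 CPM against 36.9, 77.0 and 118.1 CPM (-1.21, edgeR adjusted p = 0.274). For *Dsp*, too, N10 lay inside the 16GsoT/T range, and W481 and W483 lay above it. *Calb1*, the calcium buffer of mature granule cells, had a value of -0.04 and turned positive under 5 of the 14 alternatives.

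Medians of CA1 and of CA2 and CA3 markers were near 0, -0.06 over 10 genes and -0.12 over 13, but single genes went both ways. Of the CA1 markers 3 were higher and 7 lower, and 3 in each direction had an unadjusted p below 0.05. Of the CA2 and CA3 markers 4 were higher and 9 lower, and 3 higher and 1 lower reached this limit. Over all genes 3.72% were higher and 5.12% lower at this limit. The likelihood ratio test of edgeR called 2 CA2 and CA3 markers, against 0.757% of all genes. *Wfs1*, a CA1 marker of the endoplasmic reticulum, was at 135.6, 172.6 and 164.0 CPM against 125.3, 129.6 and 124.5 CPM (0.31, edgeR adjusted p = 0.438). Each 16GsoT/T mouse was above every WT mouse for *Wfs1*, without passing the test. Of the genes that the study discusses, *Neurod1* had a log2 fold change of 0.36, *Prodh* 0.03, *Calb2* -0.27, *Fkbp5* -0.30, *Hbegf* -0.30 and *Hif3a* -0.54, and none of these 6 was called by edgeR or DESeq2. *Drd2* had too few reads to be tested, with 2.65, 1.55 and 1.39 CPM against 7.12, 2.65 and 1.96 CPM.

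The non-neuronal lists had smaller differences than the choroid plexus. Microglia markers were higher in 10 of 13 with a median of 0.12, and oligodendrocyte and astrocyte markers had medians of -0.04 and -0.05. Endothelial and mural markers were lower in 10 of 14 (median -0.35), but the median was 0.36 against N10 alone. Neocortex markers were higher in 7 of 9 with a median of 0.56, which was 0.23 against N10 alone and 0.60 against W481 and W483. All 8 tested thalamus markers were lower, with a median of -0.77 that became -1.81 against N10 alone and -0.02 against W481 and W483. *Prkcd*, a kinase of thalamic relay neurons, was at 34.7, 27.6 and 31.6 CPM against 116.1 in N10, 43.9 in W481 and 37.2 in W483, and *Slc17a6*, the vesicular glutamate transporter of thalamus, at 12.04, 9.33 and 18.03 CPM against 45.0, 19.3 and 10.1 CPM. N10 was the highest library for both, by a wide margin.

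**Figure D5:**
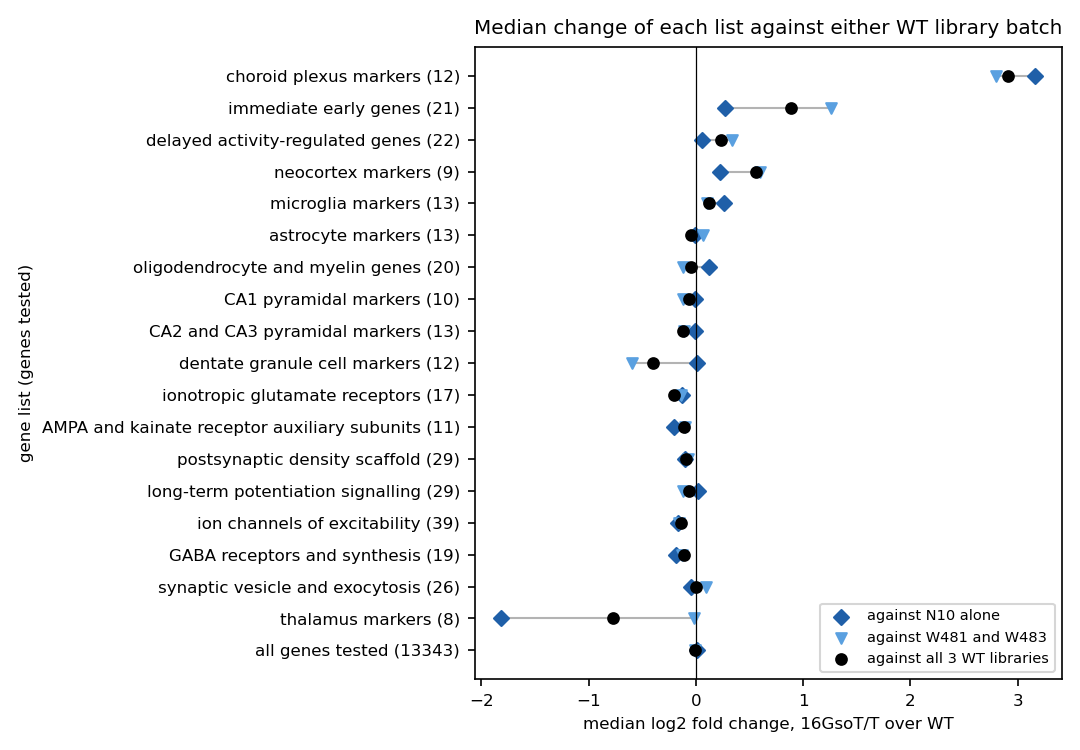
Median log2 fold change of 16GsoT/T over WT for 18 gene lists and for all tested genes, with the number of tested genes in brackets, computed against all 3 WT libraries (black circles), N10 alone (dark blue diamonds) or W481 and W483 (light blue triangles). The choroid plexus list stays near 3 in each, while IEGs, DG granule cell markers and thalamus markers depend on which WT libraries are used.

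The 18 DEGs of P35 HC were then followed into the other region and the other age, in libraries of other mice. In P35 CB 16 of them were tested, 8 were called against a background of 35.3%, and 4 of 16 were higher in 16GsoT/T. The log2 fold change of *Ttr* was -2.21 there, and the interaction of genotype with region was called for 13 of the 18 genes, against 9.61% of all genes tested. The interaction contains the P35 HC libraries by which the 18 were called, so this count is not independent of the choice. All P35 CB libraries have a dual index, but in P35 HC only W481 and W483 do, so region and library batch are not fully separable. Among the 13 genes were all 8 called choroid plexus markers, as well as *Doc2b*, which had -0.72 in P35 HC and 0.41 in P35 CB (edgeR adjusted p = 0.000149 for the difference). *Sec24d* was lower in both regions, with -0.81 in P35 CB (edgeR adjusted p = 0.00898), and its interaction was not past the threshold.

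In P14 HC all 18 were tested and 2 were called, *Gm6969* and *Sec24d*, against a background of 0.814%. *Sec24d* stood at 11.4 to 12.7 CPM in 16GsoT/T and at 18.7 to 37.3 CPM in WT at P14 (log2 fold change -1.28, edgeR adjusted p = 0.0482), so that the groups stood apart at both ages. Of the 18, 14 were higher in 16GsoT/T at P14. Over all genes the interaction of genotype with age was called for 1 of 15010 (0.00666%), *Gm6969*. The depth was greater at P14 than at P35, and a difference between the ages was not detectable for the other 17 genes.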

How the data were processed

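Stranded libraries of HC mRNA from single mice were sequenced, and the authors mapped the reads with TopHat2 and counted them per gene with HT-seq. The deposited values are raw counts, in one table per age, without normalization. The submitters' processing notes name CASAVA 1.8.2, TopHat2 2.0.8, HTSeq 0.6.1, edgeR 3.2.4, R 3.0.0 and the build NCBIM37. The annotation and the strand option are not given in the sources used here, so overlapping and antisense genes are uncertain. The summary lines of HT-seq were left out.

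In R 4.3.3, genes passing filterByExpr with a minimum count of 10 were scaled by TMM and tested with the quasi-likelihood test of edgeR 4.0.16 (limma 3.58.1), with only the 6 libraries of P35 HC in the fit. P-values were adjusted by Benjamini-Hochberg over all tested genes. Interactions with region and age used 12 libraries each. No 2 libraries of a group differed by as little as sampling noise. The alternatives were DESeq2 1.42.0 and its size factors, the likelihood ratio test, other filters, one fit of all P35 libraries, library batch as a covariate, N10 alone, and each library left out in turn. The procedure was tested on simulated data. Named genes are the 10 highest and 10 lowest DEGs with a mean of at least 2 log2 CPM and no overlap, up to 6 DEGs per list, the genes beside the breakpoints and genes named by the study. Every other gene was named after its values were seen, which holds for *Sulf1*, *Ace*, *Enpp2*, *Clic6* and each uncalled gene described in a list. The members and the lists were chosen with earlier results of these data known. Some single genes of the lists are not reported here.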

Additional observations from a re-analysis of the deposited data

Results flagged for a closer look

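The effect of genotype differed between P35 HC and P35 CB, by a tested interaction over 12 libraries, for 13 of the 18 DEGs. Of all genes tested, 9.61% were called. The 18 were chosen in the same P35 HC libraries, so this count is not independent of the choice. All P35 CB libraries have a dual index, but in P35 HC only W481 and W483 do. Region and library batch are thus not fully separable. All values are differences of log2 fold changes, P35 HC minus P35 CB, each with its adjusted p from edgeR in brackets. For the choroid plexus markers they were 6.46 for *Ttr* (0.0068), 6.39 for *Folr1* (0.00529), 6.03 for *Kcnj13* (0.00204), 5.68 for *Slc4a5* (0.00744), 4.86 for *Kcne2* (0.0121), 4.29 for *Cldn2* (0.00675), 4.13 for *Sostdc1* (0.0156) and 3.39 for *Clic6* (0.0113). Each of these 8 genes was higher in 16GsoT/T in HC and had a negative log2 fold change in CB, from -2.35 to -1.12, and in CB *Kcnj13* and *Folr1* passed the test. In P35 CB the summed level of the 13 choroid plexus markers was 25.1, 1280 and 2180 CPM in WT, scaled over all 24 libraries. In 16GsoT/T it was 145, 294 and 399 CPM, inside the WT range. *Enpp2* differed by 2.77 (0.00749), *Sulf1* by 2.15 (7.56e-05) and *Ace* by 2.03 (0.00404). In the other direction, *Doc2b* differed by -1.13 (0.000149) and *Zswim4* by -1.02 (0.00204), the latter with a log2 fold change of 0.03 in CB.

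Between P35 HC and P14 HC the effect differed for *Gm6969* alone, by 9.37 (edgeR adjusted p = 0.000692). Its log2 fold change was 9.36 at P35, where WT had no reads, and 1.11 at P14. The first of these and the difference depend on the prior count and are not bounds.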

How the results depend on the processing

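All 18 DEGs kept their sign under the 14 alternatives. The number of DEGs was 18 with DESeq2 size factors and with library batch as a covariate and 19 with a mean of at least 1 log2 CPM. It was 134 with no filter on low counts, 44 with DESeq2, 101 with the likelihood ratio test, 42 in one fit of the 12 P35 libraries, 6 against N10 alone and 8 (without B12) to 130 (without N10) when one library was left out, with 39 without B11 and 10 without W481. With a fold change of at least 1.5 the counts were 118, 39, 85, 33, 6 and 8 to 126. Of the 18 DEGs, 7 were called with library batch as a covariate, 9 in the fit of 12 libraries and 1 against N10 alone, where a lone WT library is assumed to vary like the others. The interaction with age was called for 27 genes with no filter, 115 with DESeq2 and 1 to 70 when one library was left out (2 without B12, 24 without B11, 70 without N10), and that with region for 1021 to 1645 under every alternative run. For the named genes, 629 values kept their sign and side of the threshold, 62 passed it, 65 lost it and 14 changed sign. *Caln1* was 0.19 with batch as a covariate and 0.20 against N10 alone, *Prodh* -0.172 and -0.169, and *Calb1* 0.085 and 0.088. With one library left out, *Auts2* ran from -0.18 to 0.073, *Prodh* from -0.059 to 0.143 and *Calb1* from -0.19 to 0.042. The causes were not tested. No paired analysis was possible because the names carry animal numbers that are not shared between the groups. Depth limits genes under about 1 CPM, where 3 counts set the floor.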

Other observations

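*Lars2*, a mitochondrial leucyl-tRNA synthetase, was at 1770 CPM in W483 and at 84.9 to 249 CPM in the other 5 libraries. Of the cerebellum markers in B10, *Cbln3*, a gene of cerebellar granule cells, was at 42.9 CPM, against 3.56 CPM in N10 and at most 0.832 CPM in the other 4 libraries, and *Gabra6*, a GABA receptor subunit of the same cells, was at 27.9 CPM in B10, 3.81 CPM in N10 and 0 in the others.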
